A study of Arabidopsis thaliana with 48 samples.

Results

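A set of 111 Arabidopsis thaliana genes, of 32824 gene identifiers in the deposited tables, had a higher mean RNA level after high light in wild-type seedlings. By the thresholds below, the mean was not raised after heat, nor after high light and heat given together. Of these genes, 18 were above 0 in 1 of the 3 high light libraries and 9 in 2 of them. The set comprises the early light-induced protein gene ELIP2, the phenylpropanoid and flavonoid genes PAL1, CHI and CHIL, several UDP-glycosyltransferases, the methionine synthase MS2 and the regulator MYB13. Members were chosen by their measured values, group means of log2(FPKM + 1) in Col0, where FPKM is fragments of a gene scaled to its length and to the size of the library. They had a high light mean at least 1 above Control, with the heat mean and the combined mean each less than 0.4 above Control. Of the 881 genes at or above the first threshold, 12.6% were members, 553 had both other means at 0.4 or more, 175 were at 0.4 or more in the combination alone, and 42 in heat alone.

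The series holds 48 RNA-seq libraries of whole seedlings, 24 of mutants of the bHLH35 gene (the allele is not given in the sources used here) and 24 of the wild type Col0, with 3 libraries per group. Seedlings aged 7 days were treated for 1.5 h, in each genotype with high light of 700 µE (HL), heat of 33 °C (HS), both together (HL+HS), salt at 50 mM in the medium since germination (S), or salt with these (S+HL, S+HS, S+HL+HS), against Control (no salt, 150 µE, 21 °C). The question addressed is how seedlings respond to these stresses when they meet, and what the loss of bHLH35 changes. Nothing in the labels says whether the 3 libraries of a group came from separate cultures, so p-values measure the spread between these libraries, which may be technical. Because the Col0 libraries HL, HS, HL+HS and Control chose the members, their values are a description without a test. Tests were run on the Col0 salt libraries and on all mutant libraries, which the choice did not use. In Col0 the filter on low values and the variance came from all 24 Col0 libraries, those of the choice included.

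High light in excess of what photosynthesis can use is met by plants with photoprotective proteins in the chloroplast and with phenolic sunscreens. Phenylalanine ammonia-lyase opens the phenylpropanoid pathway, chalcone synthase and chalcone isomerase lead from it into flavonoids, and glycosyltransferases and transporters finish the products and carry them to the vacuole. Heat shock factors raise chaperone genes in hot plants, and strong light also raises many of these chaperone genes.

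The 250 bases before the annotated start of the gene are printed for 5 members, on the RefSeq TAIR10.1 assembly and 5′ to 3′ on the strand of the gene. The first 4 were picked because they hold the letters ACGTG, the core of abscisic acid and light response elements, on either strand (capitals), and CHI because it does not. Of the 7 phenylpropanoid and flavonoid members described below, 3 hold these letters (CHIL, UGT84A2 and DTX35) and PAL1, ADT5, CCoAOMT1 and CHI do not; of 4 further UDP-glycosyltransferases 2 hold them. The windows are chr5:1563036-1563285 (plus strand) for CHIL, chr3:7595430-7595679 (plus) for UGT84A2, chr4:13079257-13079506 (minus) for DTX35, chr3:17191168-17191417 (minus) for UGT76E12 and chr3:20431598-20431847 (minus) for CHI.
CHIL: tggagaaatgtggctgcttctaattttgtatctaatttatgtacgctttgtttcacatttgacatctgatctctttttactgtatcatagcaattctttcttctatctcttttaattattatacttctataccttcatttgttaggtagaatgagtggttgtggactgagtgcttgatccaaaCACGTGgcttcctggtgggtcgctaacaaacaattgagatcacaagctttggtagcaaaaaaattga
UGT84A2: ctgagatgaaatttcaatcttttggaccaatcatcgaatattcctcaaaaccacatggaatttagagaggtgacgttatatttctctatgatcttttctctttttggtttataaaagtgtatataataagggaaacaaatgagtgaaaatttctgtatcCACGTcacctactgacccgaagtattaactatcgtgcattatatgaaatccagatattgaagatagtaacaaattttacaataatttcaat
DTX35: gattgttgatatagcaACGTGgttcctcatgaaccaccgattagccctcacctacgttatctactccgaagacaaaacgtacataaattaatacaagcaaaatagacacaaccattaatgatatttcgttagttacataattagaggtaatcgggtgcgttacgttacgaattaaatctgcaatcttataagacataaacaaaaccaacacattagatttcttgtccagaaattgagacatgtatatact
UGT76E12: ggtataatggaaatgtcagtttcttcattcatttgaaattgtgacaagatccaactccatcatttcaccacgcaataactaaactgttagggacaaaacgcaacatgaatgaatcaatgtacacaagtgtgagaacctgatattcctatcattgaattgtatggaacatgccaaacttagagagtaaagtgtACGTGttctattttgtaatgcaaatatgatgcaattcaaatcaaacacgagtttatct
CHI: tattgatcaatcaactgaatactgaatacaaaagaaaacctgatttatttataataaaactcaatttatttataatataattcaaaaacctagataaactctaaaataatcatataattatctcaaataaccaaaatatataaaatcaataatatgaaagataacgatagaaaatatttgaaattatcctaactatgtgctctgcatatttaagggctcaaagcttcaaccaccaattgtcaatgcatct
Of the 82 protein-coding members, 30 (36.6%) hold ACGTG on either strand of this window, against 22.9% of 27431 protein-coding genes. The G-box CACGTG, which contains ACGTG on both strands and stands in the CHIL window, was found in 6.1% of these members and 6.5% of all. The other motifs searched on both strands were CCGAC (8.5% of members, 12% of all), ACGCGT (0.0% and 1.7%), its 5-letter form CGCGT (1.2% and 6.9%), and the W-boxes TTGACC (9.8% and 12.2%) and TTGACT (19.5% and 19.1%). The heat shock element core GAANNTTC was in 8.5% of members and 9.5% of all, and the evening element AAAATATCT in 3.7% and 2.4%.

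Estimated from the step size of low FPKM values, the libraries held 19.4 to 43.9 M fragments (median 24.3 M). The bHLH35 transcript (AT5G57150) stood at 3.28 to 14.63 FPKM in mutant libraries and 20.87 to 95.32 FPKM in Col0 libraries, without overlap. The summed FPKM of 3 root markers (EXPA7, CASP1 and COBL9) moved with several treatments: in Col0 it was 42.1 to 69.2 in HL, 41.0 to 53.1 in HS, 38.8 to 94.1 in HL+HS and 75.7 to 162.1 in the 4 salt groups, against 21.1 to 28.4 in Control. In the mutant it was 17.1 to 45.3 in HL, 14.6 to 21.8 in HS, 17.2 to 39.9 in HL+HS and 63.3 to 144.9 in the salt groups, against 12.9 to 14 in Control. The part of seedling makeup in the results below was not tested, and in whole seedlings fewer cells of a type cannot be told apart from less RNA per cell. Within the salt medium the Col0 sums overlapped between S+HL (107.4 to 121.1) and S (75.7 to 125.9). Those of S+HL+HS were 107.9 to 128.3, and those of S+HS, at 123.8 to 162.1, lay mostly above the other salt groups.

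Protein-coding genes made up 82 of the members; the others were 19 long noncoding RNAs, 4 small nuclear RNAs, 2 small nucleolar RNAs, 2 antisense RNAs, the precursor of microRNA 163 and ATCG00630, which the gene table does not list. Of 110 members with an annotated length, 33 (30.0%) had under 400 spliced bases, against 15.4% of the 32539 genes with a length. Of these 33 short members, 26 were above 0 in 1 or 2 of the 3 HL libraries, whereas each of the 77 longer members was above 0 in every HL library. The small nucleolar RNA gene AT1G07903 illustrates the short class, with 1041 FPKM in HL replicate 1 and 0 in the other 47 libraries; U1.10, a small nuclear RNA, had 356 FPKM in HL replicate 1 and was likewise listed at 0 elsewhere. Of the 15 members with the largest HL value, AT2G22590, ELIP2 and TBL26 had 400 or more bases, ATCG00630 has no annotated length, and the others had under 400 bases. These include AT5G03245 and AT2G08915, which were above 0 in all 3 HL libraries, though AT2G08915 was at almost 0 in all but 1 of them. Its HL mean was 20.6 FPKM with an SD of 35.6 FPKM. Every HL library lay above every Control library for 71 of the 77 longer members and for 72 of all 111 (64.9%, against 10.6% of all genes), a separation that the choice on these libraries largely builds in. Just inside the threshold stood ADT5, MGD2 and AT3G22560, at 1.011, 1.007 and 1.006, and just outside it AT1G77330, PP2-A8 and AT1G04343, at 0.9999, 0.998 and 0.995.

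**Figure D1:**
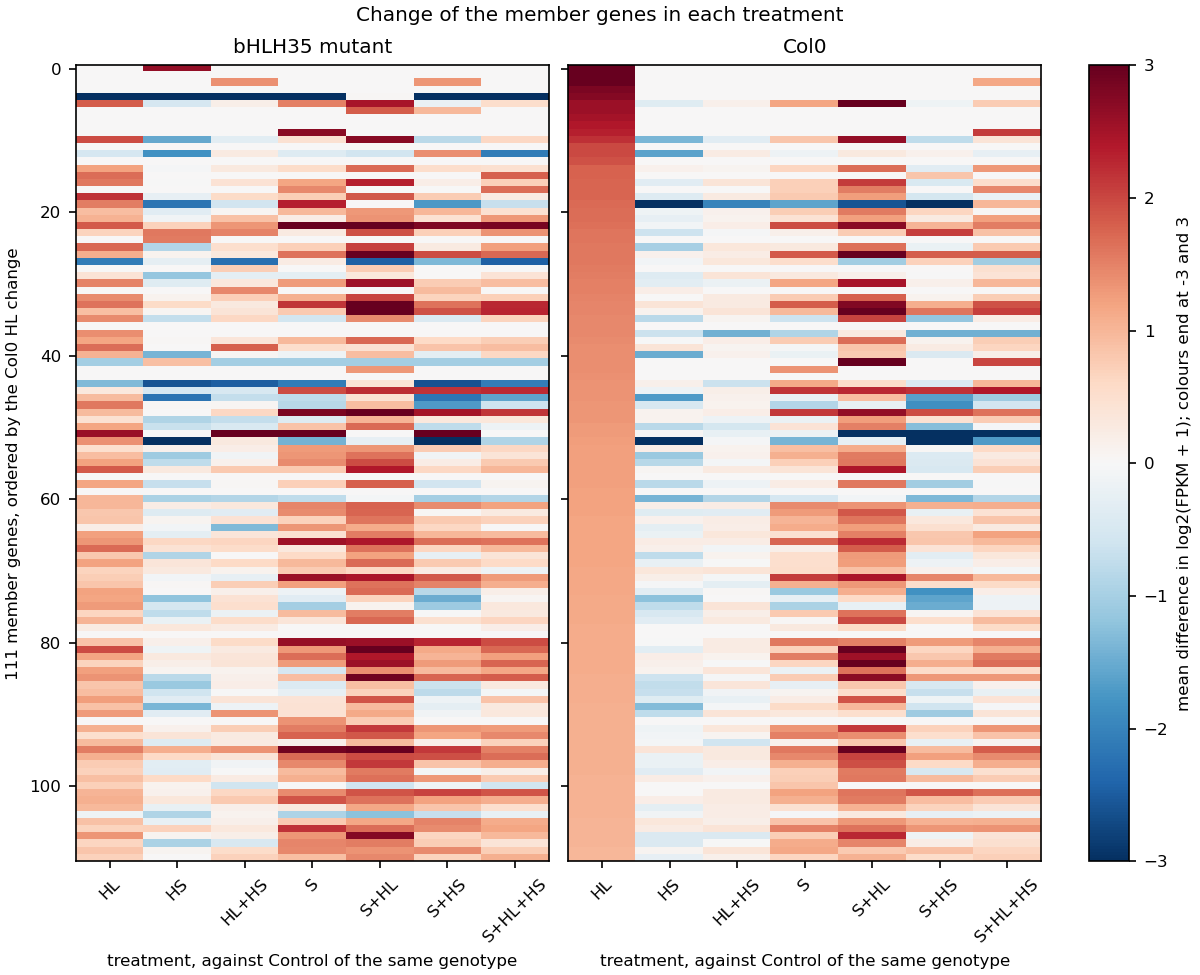
Mean difference in log2(FPKM + 1) from Control of the same genotype for the 111 members (rows, ordered by the Col0 HL difference) in the 7 treatments (columns), in the bHLH35 mutant (left) and Col0 (right). The Col0 HL, HS and HL+HS columns follow from the choice of members. The Col0 salt columns share its Control libraries and are a description, with a member median of 1.26 in S+HL. The choice used no mutant library, and there the member medians are 0.91 in HL and 1.36 in S+HL.

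ELIP2 encodes a thylakoid protein of the chlorophyll-binding family that accumulates under excess light. In Col0 it had 222, 127 and 87.0 FPKM in HL, 21.4, 21.8 and 24.3 FPKM in HL+HS and 14.7, 11.9 and 6.23 FPKM in HS, against 17.59, 45.1 and 29.1 FPKM in Control. Its HL libraries lay above every other library without salt, and each HS library lay below each Control library. The close relative ELIP1, which is no member, differed in heat: its mean log2(FPKM + 1) was 3.24 above Control in HL, 1.90 above in HS and 2.77 above in HL+HS.

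CHI (AT3G55120), chalcone isomerase, had 213, 88.5 and 71.4 FPKM in HL, 48.7, 35.5 and 42.7 FPKM in HL+HS and 22.7, 23.5 and 29.7 FPKM in HS, against 28.7, 30.8 and 37.1 FPKM in Control. PAL1, phenylalanine ammonia-lyase, had 443, 211 and 144 FPKM in HL, 105, 78.3 and 108 FPKM in HL+HS and 49.7, 52.5 and 67.7 FPKM in HS, against 110, 93.8 and 98.9 FPKM in Control. For PAL1 the HS libraries were below Control and the combined libraries overlapped Control. The other members of this group, put together after the values were seen, were CHIL (a non-catalytic relative of CHI that aids flavonoid formation), ADT5 (arogenate dehydratase, which makes phenylalanine), CCoAOMT1 (a methyltransferase of lignin and phenolic synthesis), UGT84A2 (a sinapate glucosyltransferase, AT3G21560) and DTX35 (a vacuolar flavonoid transporter, AT4G25640). Their HL differences were 1.01 to 1.43 and their HL+HS differences -0.15 to 0.20.

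Another 4 UDP-glycosyltransferases belonged to the set: AT2G22590, AT4G27560, AT1G06000 and UGT76E12. AT2G22590, the longer member with the largest HL difference (2.57), had 38.2, 13.7 and 7.69 FPKM in HL, 2.76, 1.96 and 1.93 FPKM in HL+HS and 1.13, 0.93 and 1.70 FPKM in HS, against 0.81, 2.48 and 2.78 FPKM in Control. The combined libraries sat within the Control range.

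MS2, which makes methionine, and SAHH2, which clears S-adenosylhomocysteine after methyl transfer, serve the methyl cycle. MS2 had 606, 182 and 110 FPKM in HL, 94.5, 48.5 and 57.5 FPKM in HL+HS and 29.1, 45.02 and 110.7 FPKM in HS, against 89.1, 90 and 102 FPKM in Control. HL replicate 1 lay far above the other two, of which replicate 3 was close to Control. APR3, a sulphate-reducing enzyme, and FMO GS-OX2, which oxidises glucosinolate side chains, had HL differences of 1.04 and 1.02.

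Among regulators, the R2R3 factor MYB13 had 34.1, 50.5 and 39.2 FPKM in HL, 17.9, 12.9 and 19.5 FPKM in HL+HS and 6.51, 5.19 and 6.29 FPKM in HS, against 10.98, 11.6 and 16.6 FPKM in Control. The jasmonate regulator MYC2 had 20.5, 13.95 and 22.1 FPKM in HL, 7.51, 9.83 and 13.03 FPKM in HL+HS and 12.5, 7.07 and 15.6 FPKM in HS, against 11.97, 6.67 and 7.88 FPKM in Control. MYB13 was lower in heat than in Control, whereas for MYC2 the heat libraries overlapped Control. FRU, the iron-uptake regulator FIT, had an HL difference of 1.02.

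LEA3, a late embryogenesis abundant protein gene, showed the lowest heat value of the longer members. It had 210, 193 and 146 FPKM in HL, 77.8, 80.1 and 65.4 FPKM in HL+HS and 10.9, 9.28 and 4.53 FPKM in HS, against 56.0, 96.3 and 80.0 FPKM in Control. HL+HS exceeded HS by 3.10 for this gene, and the combined libraries lay within the Control range.

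Members of the plasma membrane and cell wall were also present. BOR5, a borate transporter, had 8.97, 9.03 and 7.93 FPKM in HL, 3.04, 2.58 and 3.10 FPKM in HL+HS and 2.21, 2.39 and 2.93 FPKM in HS, against 2.82, 4.96 and 3.09 FPKM in Control. Its HL libraries were close to each other and above all other groups without salt. The proline transporter ProT3 had 17.3, 8.72 and 5.39 FPKM in HL, 2.16, 1.46 and 0.85 FPKM in HL+HS and 0.82, 0.34 and 1.09 FPKM in HS, against 3.05, 5.28 and 2.595 FPKM in Control. For ProT3 the combined libraries lay below every Control library. TBL26, of a family of cell wall acetyltransferases, had 50.7, 8.1 and 7.31 FPKM in HL, 7.39, 2.94 and 2.50 FPKM in HL+HS and 2.59, 2.59 and 8.69 FPKM in HS, against 5.09, 2.93 and 3.05 FPKM in Control.

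**Figure D2:**
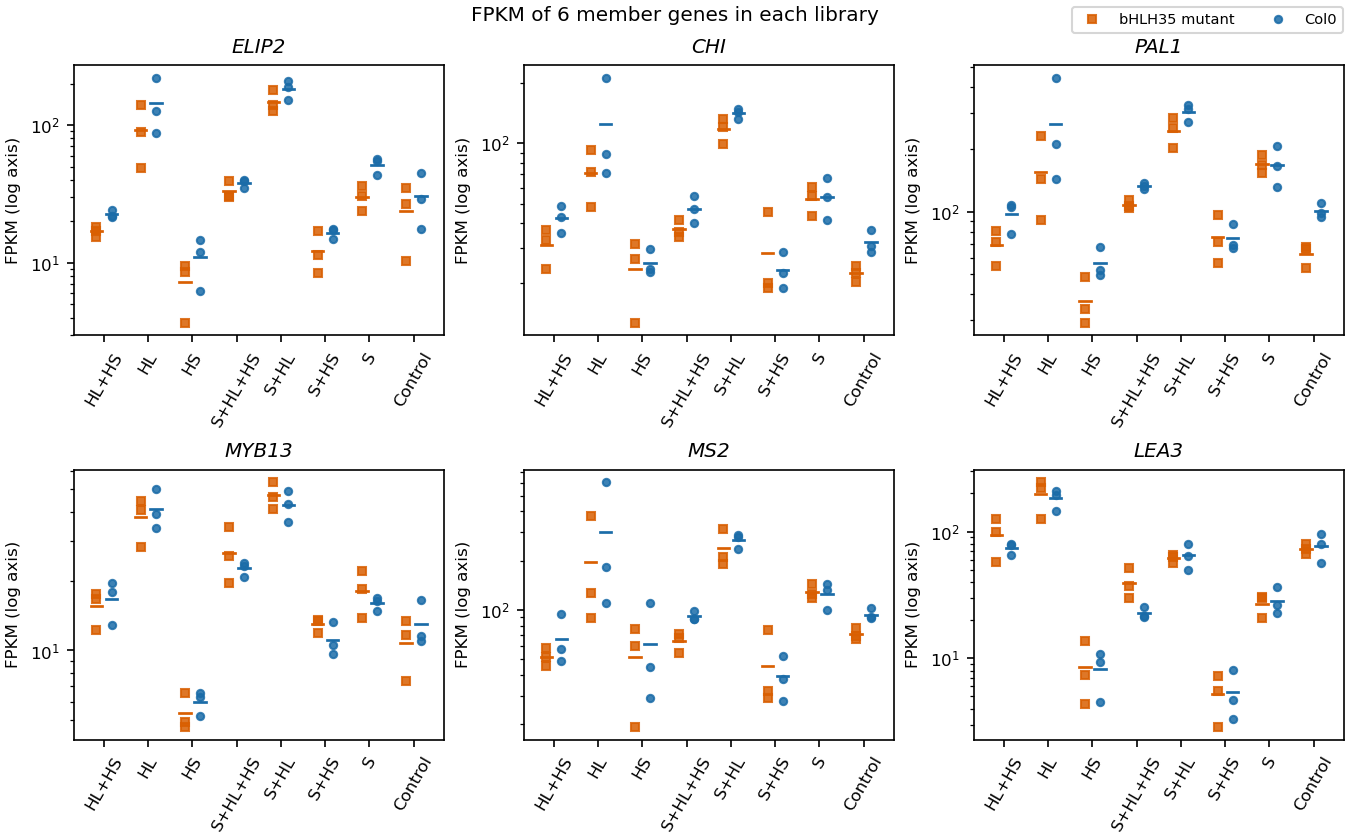
FPKM (log axis) of 6 members in every library of the 8 groups, bHLH35 mutant (squares, left of each pair) and Col0 (circles, right); short lines are group means. For ELIP2 and MYB13 in Col0 the HL and S+HL libraries stand above all others, and the LEA3 values in Col0 HS lie between 4.53 and 10.9 FPKM.

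The 3 Col0 HL libraries differed in how far members stood above Control. Replicate 1 held the highest value for 56 of the 77 longer members (10 in replicate 2 and 11 in replicate 3), and their median difference from the Control mean was 1.63, 1.10 and 0.89 in replicates 1, 2 and 3. In the same libraries the mean difference of 20 heat shock genes was 2.39, 3.51 and 5.06. The mutant HL libraries gave medians of 1.46, 1.13 and 0.76 for the longer members and means of 1.89, 4.45 and 5.25 for the heat shock genes. In both genotypes the library with the most member RNA had the least heat shock RNA, and the part of this in the results was not tested. Without Col0 HL replicate 1 the rule would find 88 genes, 55 of them members; without HL replicate 3 it would find 171 genes, 98 of them members.

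**Figure D3:**
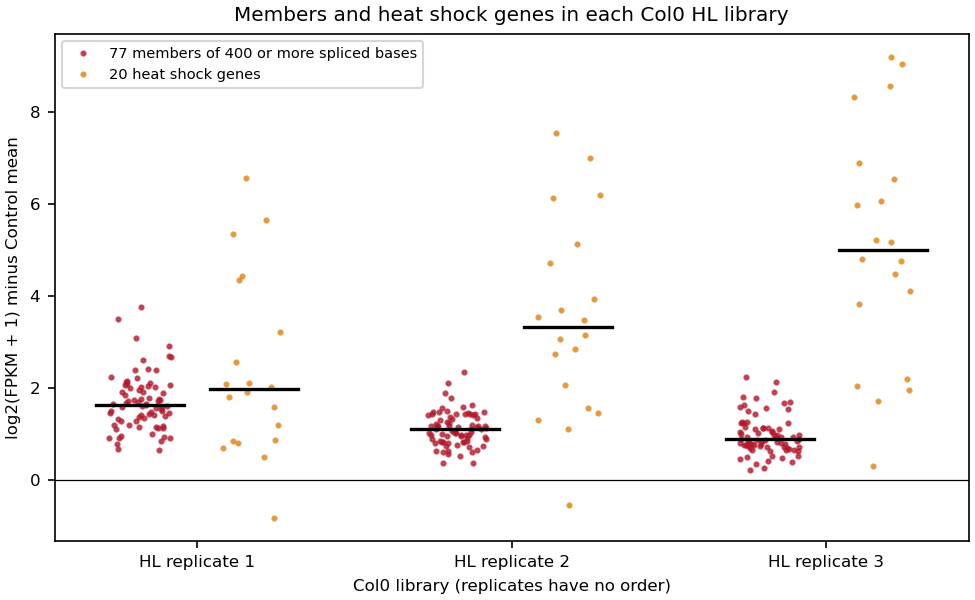
Difference in log2(FPKM + 1) from the Control mean in each of the 3 Col0 HL libraries, for the 77 members of 400 or more spliced bases and for 20 heat shock genes; black lines are medians (1.63, 1.10 and 0.89 for members, 1.98, 3.32 and 5.0 for heat shock genes). The member points lie highest and the heat shock points lowest in replicate 1.

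On salt medium, whose libraries were not used for the choice, light raised and heat lowered many members in Col0. S+HL against S called 39 members higher and 0 lower at a Benjamini-Hochberg adjusted p of 0.05 in limma. Of 20744 genes 6.76% were called higher and 5.18% lower. The filter of 1 FPKM in any 3 Col0 libraries, those of the choice included, was passed by 90 members. AT2G08770 and AT4G09315 passed it only with their HL libraries. The median difference was 0.79 over members tested and -0.015 over all genes tested. S+HL+HS against S+HL called 42 members lower and 0 higher (5.63% of all genes lower and 4.65% higher), with medians of -0.87 and -0.042. With the contrasted groups fitted alone, S+HL against S gave 43 higher (1463 of all genes) and S+HL+HS against S+HL 52 lower (1761). S+HS against S called 31 members lower and 2 higher (17.8% of all genes lower and 13.7% higher), though 17 were lower without S replicate 1 and 18 without S+HS replicate 2. The 2 higher calls were 0 without S replicate 2, S+HS replicate 2 or S+HS replicate 3. S+HL+HS against S called 6 members higher and 3 lower (10.6% and 13.3% of all genes), and 3 were higher without S replicate 3. With these groups fitted alone the counts were 9 higher and 10 lower, against 2630 and 3379 of all genes.

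By group, 6 of 7 phenylpropanoid and flavonoid members rose in S+HL and all 7 fell when heat was added to it; the exception, ADT5, differed by 0.34 in S+HL. CHI had 143, 149 and 132 FPKM in S+HL, 46.8, 54.4 and 40.1 FPKM in S+HL+HS and 28.5, 22.4 and 19.0 FPKM in S+HS, against 67.2, 53.8 and 41.2 FPKM in S. These are log2 differences of 1.40 (SE 0.27, limma adjusted p = 0.0016) for S+HL against S and -1.57 (SE 0.27, limma adjusted p = 0.00093) for S+HL+HS against S+HL. CHIL differed by 1.34 and -1.60, PAL1 by 0.87 and -1.18, UGT84A2 by 0.91 and -0.95 and DTX35 by 0.79 and -0.95 in the same comparisons, each called. The 4 UDP-glycosyltransferases all rose and all fell, AT2G22590 by the most after heat (-2.25).

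ELIP2 repeated its contrast on salt, with 190, 209 and 153 FPKM in S+HL, 39.7, 34.8 and 39.3 FPKM in S+HL+HS and 14.9, 17.2 and 17.5 FPKM in S+HS, against 56.8, 43.2 and 54.9 FPKM in S. No library of S+HL overlapped another of these groups. The difference was 1.81 (SE 0.31) for S+HL against S and -2.24 (SE 0.31) for S+HL+HS against S+HL, with limma adjusted p of 0.00041 and 0.00014. MYB13 rose by 1.35 in S+HL and fell by 0.87 with heat. MYC2, with differences of 0.46 and -0.24 (SE 0.31 each), passed in neither, and of the 4 regulators MYB13 alone was called higher. Of the 4 methyl cycle and sulphur genes, FMO GS-OX2 was called higher in S+HL, and it, MS2 and SAHH2 fell when heat was added (-1.87, -1.54 and -1.41), while APR3 differed by 0.05.

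Of 10 cell wall and surface members, 3 rose in S+HL against S and 4 fell in S+HL+HS against S+HL, among them FAR5, which makes fatty alcohols for suberin (-1.27). TBL26 passed in neither, with differences of 1.01 (SE 0.52) and -0.36 (SE 0.52). Of 5 transport members 2 rose and 3 fell, BOR5 by 1.65 (SE 0.23) in the first comparison and -1.48 (SE 0.23) in the second. ProT3 was not called, at 0.42 (SE 0.31) and -0.80 (SE 0.31).

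The largest rises in S+HL against S, among called members of at least 5 FPKM, were in a protein kinase gene (AT5G24080, 2.90), a RING/U-box gene (AT1G24580, 2.66), the laccase LAC12 (2.43), AT3G24750 of unknown function (2.33) and AT1G57590, of a pectin-modifying enzyme family (2.2). LAC12, a scarce transcript, had 5.55, 12 and 11.7 FPKM in S+HL, 4.38, 2.76 and 1.89 FPKM in S+HL+HS and 1.98, 1.31 and 1.46 FPKM in S+HS, against 1.48, 1.10 and 0.32 FPKM in S. Without salt its HL libraries reached 1.03 to 2.27 FPKM. Salt by itself went with a difference of at least 0.4 from Control in 58 of the 111 members in Col0 (52.3%, against 14.1% of all genes) and of at least 1 in 29 (26.1%, against 3.42%), a description since the Control libraries are shared with the choice.

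**Figure D4:**
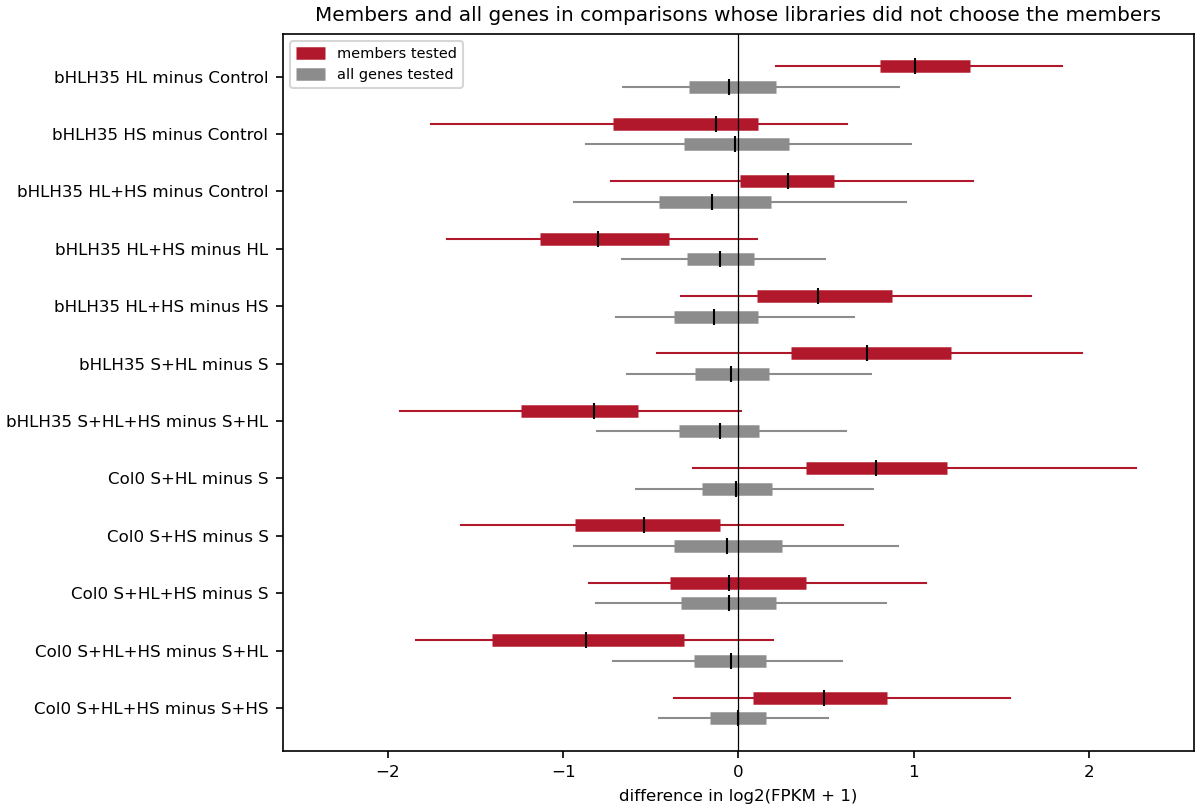
Differences in log2(FPKM + 1) over the members tested (red) and over all genes tested (grey) in 12 comparisons, bHLH35 mutant above Col0. Thick bars span the 25th to 75th percentile, thin lines the 5th to 95th, and ticks are medians; the members lie right of all genes in light comparisons (medians 1.01, 0.73 and 0.79) and left when heat is added to light (-0.80, -0.82 and -0.87).

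In the bHLH35 mutant HL against Control called 52 members higher and 0 lower, where 8.1% of 20675 genes were called higher and 9.29% lower; 85 members were tested. Medians were 1.01 over members and -0.054 over all genes. HL+HS against HL called 34 lower and 0 higher (4.21% of all genes lower and 1.96% higher), with medians of -0.80 and -0.105. That count was 9 without HL replicate 1, 11 without HL+HS replicate 1 and 18 without either HL replicate 2 or HL+HS replicate 2, and 6 when these groups were fitted alone. HS against Control called 16 lower and 1 higher (14.8% and 14.1% of all genes); the 1 higher call was 0 without any 1 Control library or HS replicate 2 and became 2 without HS replicate 1. HL+HS against Control called 7 higher and 3 lower (10.7% and 24.7% of all genes), 4 higher without Control replicate 2. These groups fitted alone gave 11 higher and 6 lower (2218 and 5065 of all genes). Genes of at least 5 FPKM on average gave 3 higher and 1 lower (1822 and 4215 of all genes).

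Members of the same roles were among the mutant calls. ELIP2 had 140, 89.1 and 49.2 FPKM in HL, 18.2, 15.4 and 17.02 FPKM in HL+HS and 9.39, 8.55 and 3.65 FPKM in HS, against 10.2, 26.5 and 34.9 FPKM in Control. It rose by 1.95 in HL (SE 0.39) and its difference for HL+HS against HL was -2.27 (SE 0.39), each with a limma adjusted p of 0.0016. Of the 7 phenylpropanoid and flavonoid members, 6 rose in HL and 6 fell when heat was added, and the 4 UDP-glycosyltransferases gave 4 and 3. CHI had 92.7, 71.5 and 48.3 FPKM in HL, 23.7, 36.7 and 33.0 FPKM in HL+HS and 12.7, 31.5 and 26.6 FPKM in HS, against 20.4, 22.6 and 24.3 FPKM in Control; its HL difference was 1.57 (SE 0.31, limma adjusted p = 0.0014).

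In the mutant 4 of the 5 transport members rose in HL and 4 fell in HL+HS against HL; for BOR5 these differences were 1.26 and -0.88. Of the 10 cell wall and surface members 5 rose and 2 fell. MYB13 rose by 1.73 and MYC2 by 0.88 in HL, and for HL+HS against HL they differed by -1.22, a call, and -0.74, which was not called. In a list of 20 jasmonate genes, of which MYC2 is a member and 18 were tested, 9 rose in mutant HL (8.1% of all genes). In HL+HS against HL, 2 of the 18 fell (4.21% of all genes). In S+HL against S, 1 of the 18 rose in the mutant (5.97% of all genes), and 1 rose and 1 fell in Col0 (6.76% and 5.18% of all genes).

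Other large mutant rises in HL were in FAMT, a methyltransferase of farnesoic acid (2.16), in the cell wall protein gene PELPK2 (1.85) and in AT2G34810, of the berberine bridge enzyme family (1.83). The proline transporter ProT3 fell by 1.87, the F-box gene AT4G34550 by 1.67 and MS2 by 1.63 when heat was added to HL. Without HL replicate 1, AT4G34550 and MS2 differed by -1.10 and -1.03 and were no longer called. MS2 also lost its call without HL+HS replicate 1 (-1.54), HL replicate 2 (-1.81), HL+HS replicate 2 (-1.64) or HL+HS replicate 3 (-1.72).

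On salt medium the mutant also had member calls in both steps. S against Control called 47 members higher and 3 lower (19.3% and 7.27% of all genes), S+HL against S called 36 higher and 0 lower (5.97% of all genes higher and 5.55% lower), and S+HL+HS against S+HL called 41 lower and 0 higher (8.15% of all genes lower and 4.34% higher). The last count was 22 without S+HL replicate 1 and 24 without S+HL+HS replicate 1. All 4 regulators were among the members raised by S, FRU by the most (2.18), and none of its S+HL libraries (8.22, 11.3 and 7.03 FPKM) exceeded all of its S libraries (17.3, 13.1 and 9.15 FPKM). The root marker sum was 95.1 to 119.8 FPKM in mutant S, against 12.9 to 14 FPKM in mutant Control, and its part in the S calls was not tested.

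Some mutant comparisons moved with the scaling. The median over all genes was -0.151 for HL+HS against Control, -0.105 for HL+HS against HL, -0.103 for S+HL+HS against S+HL and 0.13 for S against Control, and median-of-ratios scaling moved these to 0.014, -0.003, -0.011 and -0.007. With that scaling the share of calls that were higher went to 53.8% (30.2% as deposited), 55.1% (31.8%), 50.6% (34.8%) and 52.6% (72.6%), and for HL against Control to 59.8% (46.6%). Members called, with all genes called in brackets, were then 18 higher (3534) in HL+HS against Control and 29 lower (524) in HL+HS against HL. They were 36 lower (1198) in S+HL+HS against S+HL, 40 higher (2888) in S against Control and 61 higher (2131) in HL against Control.

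The thresholds of the rule, put to the settings it did not use, were met by 23 members in the mutant without salt (20.7% of members, against 0.484% of all genes), by 18 on salt in Col0 (16.2%, against 0.448%) and by 17 on salt in the mutant (15.3%, against 0.39%). The mutant count was 14 without HL+HS replicate 1. A light difference of 1 was reached by 46, 31 and 35 members in these settings, against 2.75%, 2.0% and 2.07% of all genes. Of these members 21, 13 and 17 were at 0.4 or more in the combination of light and heat, and so missed the thresholds. Such members may still have lost part of the light difference. ELIP2, CHIL, the ribonuclease RNS1, FMO GS-OX2 and AT4G27560 met the thresholds in all 3, 13 members did in 2, 17 in 1 and 76 in none.

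Members differed in where heat alone put them and in how far light stood above that level. In Col0, 27 members had an HS mean at least 0.4 below Control, and in 13 of these HL+HS exceeded HS by at least 1. The other 84 members could not reach 1 in Col0, since the rule holds HL+HS below 0.4 and their HS means were above -0.4. In the mutant, among members of 400 or more bases, HL+HS exceeded HS by at least 1 in 11 of the 23 lowered in Col0 HS and in 2 of the other 54. Their medians were 0.97 and 0.34. Over all genes tested the median was -0.141 and the 95th percentile 0.661. Other genes lowered by heat were not examined, so the split may not be particular to members. HL+HS against HS, a comparison added after the data were seen, called 18 members higher and 1 lower in the mutant (5.32% and 15% of all genes), 11 without HS replicate 3 and 10 higher and 0 lower with these groups fitted alone. As deposited 26.2% of all calls in it were higher, and with median-of-ratios scaling 57.8%. The median over all genes then went to 0.006 from -0.141, and 25 members were called higher, against 1745 of all genes.

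LEA3 led this group. It had 125, 57.6 and 99.7 FPKM in mutant HL+HS, against 13.8, 7.35 and 4.33 FPKM in HS, a difference of 3.38 (SE 0.34, limma adjusted p = 6.2e-06). The calcium-binding protein gene CP1 rose by 1.44, the potassium transporter AT3G56290 by 1.63, the purple acid phosphatase PAP16 by 1.68, MYB13 by 1.38 and CYP707A2, which breaks down abscisic acid, by 1.02. In Col0 on salt, S+HL+HS against S+HS called 11 higher and 0 lower (1.9% and 0.834% of all genes), among them LEA3 (1.97), AT3G56290 (1.43), PAP16 (1.45), CYP707A2 (1.34), MYB13 (0.98) and ELIP2 (1.15); 7 were higher without S+HL+HS replicate 1 and 21 with these groups fitted alone. CHI, UGT84A2 and MS2 were not called in the mutant comparison, with differences of 0.46, 0.34 and 0.20.

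**Figure D5:**
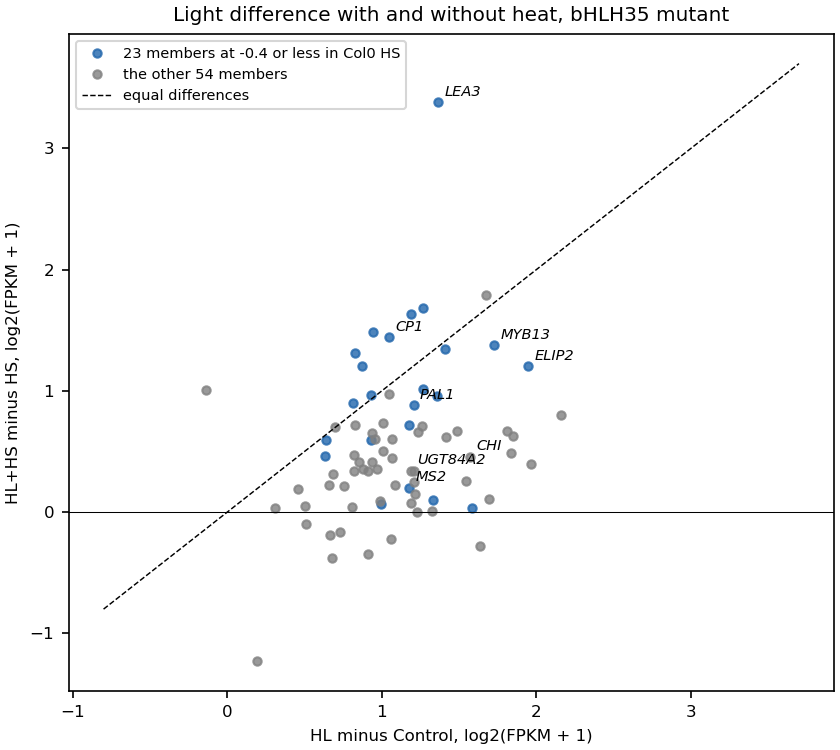
For the 77 members of 400 or more spliced bases in the bHLH35 mutant, HL minus Control (horizontal) against HL+HS minus HS (vertical), both in log2(FPKM + 1); the dashed line marks equal differences. Blue points are the 23 members at -0.4 or less in Col0 HS, grey points the other 54; LEA3, CP1 and MYB13 keep a light difference above 1 in heat, and CHI, UGT84A2 and MS2 lie below 0.5.

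Whether the combination fell short of its parts was tested as the departure from the sum of the single differences. On salt in Col0, S+HL+HS fell below that sum in 7 members and above it in 1 (2.62% and 2.15% of all genes). The 7 were AT5G24080 (-2.43), UGT76E12 (-1.96), AT3G24750 (-1.90), LAC12 (-1.84), CDT1 (-1.79), AT3G56260 (-1.40) and TBL37 (-0.86), and PAP16 stood above (1.25); its call was lost with no filter, with genes of at least 5 FPKM, with either other scaling and without the variance trend. The 7 became 2 without S+HL replicate 2, 3 without S replicate 2, S replicate 3 or S+HL replicate 3, and 4 without S+HS replicate 3 or S+HL+HS replicate 3. In the mutant without salt 4 fell below and LEA3 stood above (2.61% and 1.43% of all genes); the 4 were AT5G47330 (-1.92), AT3G56260 (-1.59), AT2G34810 (-1.34) and AT5G14130 (-1.28). They became 11 without HS replicate 1, 2 without Control replicate 2, Control replicate 3, HL replicate 2 or HS replicate 2, 1 without HS replicate 3 and 0 with these groups fitted alone, where LEA3 was not called either; 35.4% of all calls in it were higher as deposited and 50.3% with median-of-ratios scaling. For ELIP2, CHI and PAL1 the departure was -0.66, -0.40 and -0.03 on salt in Col0 (SE 0.43, 0.39 and 0.37) and -0.74, -1.11 and -0.32 in the mutant (SE 0.55, 0.44 and 0.36), none of them called.

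The effect of the genotype on the light response was tested on salt, where neither set of libraries chose the members. The difference between mutant and Col0 in S+HL against S was called for 0 of 99 members and for 0% of 21359 genes in limma, and 5 members and 437 genes had an unadjusted p under 0.05. The 5 were AT2G38905 (3.05, SE 0.72), AT2G41082 (2.65, SE 1.11) and AT1G76960 (1.12, SE 0.46), with the more positive difference in the mutant, and LAC12 (-1.16, SE 0.45) and AT5G35580 (-0.75, SE 0.35). The smallest limma adjusted p among members was 0.495, for AT2G38905, which has under 400 bases. AT2G22590 differed by -0.85 (SE 0.51), CHI by -0.26 (SE 0.43) and ELIP2 by 0.45 (SE 0.52). The 2 tables are separate files and whether they were normalised together is not given in the sources used here; a p above the threshold does not show that the genotypes respond alike.

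The flavonoid and anthocyanin pathway list of 19 genes places the members in their pathway. Without salt in Col0, 11 of the 19 had an HL difference of at least 1, and PAL1 and CHI met the rule. CHS, chalcone synthase, stood at 1.94 in HL, 0.49 in HS and 1.0 in HL+HS, F3H at 2.15, -0.18 and 0.63, the flavonol synthase FLS1 at 2.34, 0.34 and 1.06, and the flavonol regulator MYB12 at 2.36, 0.56 and 1.39. The anthocyanin regulator MYB75 stood at 1.81, 0.78 and 0.12 and missed the rule through its HS value. On salt in Col0, 16 of the 19 rose in S+HL against S (6.76% of all genes) and 16 fell in S+HL+HS against S+HL (5.63%). In the mutant 10 rose in HL against Control (8.1% of all genes) and 6 fell in HL+HS against HL (4.21%). In the high light list of 12 genes ELIP2 was the sole member, and 8 of the 12 rose in S+HL against S in Col0 and 8 in HL against Control in the mutant. With heat added, 2 of the 12 fell and 1 rose in S+HL+HS against S+HL in Col0 (5.63% and 4.65% of all genes). In the mutant 2 fell and 1 rose in HL+HS against HL (4.21% and 1.96% of all genes).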

How the data were processed

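RNA from 48 seedling libraries was measured by RNA-seq. Per the series' design text, Trim Galore 0.6.4 and FastQC 0.11.9 were applied to the reads; per the submitters' processing notes, HISAT2 2.2.1 and the TAIR10 build were used. The authors deposited FPKM values per gene, in a table for each genotype; the program that made them, the annotation, strand use and any joint normalisation are not given in the sources used here, so reads of overlapping or antisense genes and of near-identical copies may be split uncertainly. Depth was estimated from the smallest step of FPKM values of 12877 genes of 800 or more spliced bases (92.1 to 96.3% of values came out whole within 0.1); short genes rest on few reads.

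Members were found on group means of log2(FPKM + 1). On that scale limma 3.58.1 (R 4.3.3) was fitted, with a trend in the variance and all groups of a genotype in a fit. The difference between genotypes used the groups of both in a joint fit. Genes of at least 1 FPKM in 3 libraries of the fit were kept, with Benjamini-Hochberg adjustment over all genes tested. Such differences understate changes of low genes. The script was tested on simulated data. Symbols and lengths came from RefSeq (32539 identifiers matched).

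The members, lists and tests were chosen with earlier results of these data known. Genes named by rule were members in a fixed list, the 15 largest by HL, and the 5 largest called changes of at least 5 FPKM per main comparison; the role groups, HL+HS against HS, S+HL+HS against S+HS, and further named genes were chosen after values were seen. Alternatives were another pseudocount (0.1), other filters, scalings and fits, a replicate block, and leaving out each library.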

Additional observations from a re-analysis of the deposited data

How the results depend on the processing

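None of the member counts and named genes in the recomputed set changed direction. The balance of calls over all genes did turn with median-of-ratios scaling in mutant HL+HS against Control, HL+HS against HL and HL+HS against HS, as given above. It also turned in mutant HL against Control, S+HL+HS against S+HL and the departure from the sum. Mutant HS against Control went from 48.9% of calls higher to 51.7%. In Col0, S+HL+HS against S went from 44.4% to 52.8% and S+HL+HS against S+HL from 45.2% to 50.2%. Col0 S+HL+HS against S gave 9 higher and 10 lower members with the contrasted groups alone (2630 and 3379 of all genes). Pseudocount 0.1 gave 345 genes meeting the rule (92 of the members). With it 1 member was called higher in Col0 S+HS against S, 4 below the sum on salt in Col0 and 2 higher in mutant HS against Control. Over all genes these counts were 2756, 475 and 3005. A mean of at least 5 FPKM gave 1 higher in S+HS against S (2469 of all genes) and 4 below the sum in Col0 (536). In the mutant it gave 3 higher in HL+HS against Control (1822) and 30 higher in S against Control (2724). With no filter 2 mutant members were below the sum (490 of all genes). A common FPKM sum gave 1 higher in S+HS against S (2460 of all genes), and median-of-ratios scaling 18 higher in mutant HL+HS against Control (3534 of all genes). Fitting the contrasted groups alone gave, in the mutant, 0 higher in HS and 11 in HL+HS against Control, 6 lower in HL+HS against HL, 0 below the sum and 10 higher in HL+HS against HS, and 21 higher in Col0 S+HL+HS against S+HS. Over all genes these counts were 1681, 2218, 87, 102, 217 and 267, and fewer samples entered these fits. Leaving out each library gave 28 to 38 higher in Col0 S+HL against S (39 with all libraries) and 30 to 33 lower in S+HL+HS against S+HL (42). For the mutant the ranges were 38 to 51 higher in HL (52) and 37 to 43 in S (47) against Control, and 26 to 32 in S+HL against S (36). Leaving out each library also gave 17 to 33 lower and 0 to 2 higher in Col0 S+HS against S. In Col0 it gave 7 to 9 higher in S+HL+HS against S+HS, 3 to 6 in S+HL+HS against S and 2 to 8 below the sum. In the mutant it gave 0 to 2 higher in HS and 4 to 8 in HL+HS against Control, 9 to 41 lower in HL+HS against HL, 1 to 11 below the sum, 22 to 38 lower in S+HL+HS against S+HL and 11 to 19 higher in HL+HS against HS; the rule gave 88 to 171 genes and its thresholds in the mutant 14 to 30. Apart from the constructions named, the cause was not tested. Replicate numbers are shared across groups, but within a genotype same-numbered libraries did not as a rule deviate together. The median r was 0 in Col0 (-0.37 to 0.24) and 0.01 in the mutant (-0.37 to 0.32). Between genotypes this was not computed, and the HL libraries of both had their member medians and heat shock means in the same replicate order. Whether the numbers pair libraries between genotypes was not tested. A replicate block gave 38 higher in Col0 S+HL against S (1306 of all genes) and 41 lower in S+HL+HS against S+HL (1060). In the mutant it gave 54 higher in HL against Control (1687 of all genes), and 2 rather than 1 higher in HS (2886). Of the values of single genes under the alternatives, 259 kept their direction and call and 11 kept direction alone. Depth limits the 26 short members that were above 0 in 1 or 2 of the 3 HL libraries.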
